A study of Mus musculus with 27 samples.

Results

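Primary mouse microglia were treated for 24 h with 10 µM 24(S)-saringosterol or with 1 µM of a synthetic compound called GW here, and the RNA of the treatments was set against each other directly. The comparison holds 6 of the 27 libraries of the series, 3 for saringosterol and 3 for GW, chosen by the cell type and treatment in their labels. A further 3 microglia libraries that received the ethanol vehicle are given beside them as the level without either compound. All 9 cultures shared the same background: microglia shaken off mixed glial cultures and kept without serum in a DMEM/F12 medium supplemented with M-CSF, selenite, transferrin, insulin and albumin free of fatty acids. Not given in the sources used here are strain, genotype, sex and age. The labels spell the synthetic compound GW3596, GW3964 and GW3965. The doses were not matched, so every difference is one between these treatments as given and not between equal amounts of the compounds. The labels do not say whether the 3 libraries of a treatment came from separate animals or cultures, and p-values measure the spread between these libraries.

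Saringosterol is a sterol of plants and algae, and GW3965 is known as a synthetic, non-steroidal agonist of the liver X receptors (LXR). LXR are nuclear receptors that bind oxidised sterols, pair with retinoid X receptors and switch on genes for cholesterol efflux, lipoproteins and fatty acid synthesis. Among their targets is Srebf1, which encodes a precursor of the sterol regulatory element-binding proteins (SREBP). SREBP are made in the endoplasmic reticulum, travel to the Golgi with the escort protein Scap when membrane sterol is low, are cut there and then activate genes of cholesterol and fatty acid synthesis. Insig proteins hold Scap back when sterols are abundant. Microglia are the resident macrophages of the brain, where efflux through Abca1 and lipidation of Apoe are known to dispose of lipid from debris and myelin.

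The genes that set the treatments apart most uniformly were those of cholesterol synthesis and of mitosis, and the promoters of 5 of them are shown, 3 of the first group and 2 of the second. Each line gives the 250 bases before the annotated start, 5′ to 3′ on the gene's strand, from RefSeq on GRCm38.p6. Capitals mark the core of a sterol regulatory element (SRE, TCACCCCAC or TCACGCCAC, with at most 1 mismatch) and CCAAT boxes (CCAAT or ATTGG), searched on both strands. The lines are Hmgcs1 (chr13:119690101-119690350, plus strand), Cyp51 (chr5:4104698-4104947, minus strand), Hsd17b7 (chr1:169969206-169969455, minus strand), Ccnb2 (chr9:70421555-70421804, minus strand) and Top2a (chr11:99024190-99024439, minus strand).
Hmgcs1: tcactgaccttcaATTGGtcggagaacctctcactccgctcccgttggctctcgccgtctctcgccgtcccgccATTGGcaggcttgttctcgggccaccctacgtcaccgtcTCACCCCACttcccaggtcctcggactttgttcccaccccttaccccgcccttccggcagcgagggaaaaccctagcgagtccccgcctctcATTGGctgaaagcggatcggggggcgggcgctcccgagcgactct
Cyp51: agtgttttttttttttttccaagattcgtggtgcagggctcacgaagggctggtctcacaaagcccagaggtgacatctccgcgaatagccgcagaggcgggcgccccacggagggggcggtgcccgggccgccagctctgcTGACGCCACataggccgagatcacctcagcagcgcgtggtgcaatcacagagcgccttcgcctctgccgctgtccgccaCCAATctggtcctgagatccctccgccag
Hsd17b7: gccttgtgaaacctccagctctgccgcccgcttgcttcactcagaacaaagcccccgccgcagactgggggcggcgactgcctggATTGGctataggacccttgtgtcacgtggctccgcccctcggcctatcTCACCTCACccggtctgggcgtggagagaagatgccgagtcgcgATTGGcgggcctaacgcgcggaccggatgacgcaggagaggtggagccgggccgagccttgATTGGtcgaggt
Ccnb2: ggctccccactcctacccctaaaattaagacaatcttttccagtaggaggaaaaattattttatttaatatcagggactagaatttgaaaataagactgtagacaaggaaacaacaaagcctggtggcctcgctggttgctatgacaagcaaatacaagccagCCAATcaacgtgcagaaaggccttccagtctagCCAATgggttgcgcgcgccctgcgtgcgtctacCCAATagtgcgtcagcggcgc
Top2a: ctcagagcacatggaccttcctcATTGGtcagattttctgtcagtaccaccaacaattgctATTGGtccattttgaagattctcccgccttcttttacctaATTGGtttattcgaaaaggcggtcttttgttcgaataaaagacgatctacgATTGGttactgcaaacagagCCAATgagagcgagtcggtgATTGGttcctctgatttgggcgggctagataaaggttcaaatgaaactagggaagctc
The SRE core began 137 bases before the start in Hmgcs1, 108 in Cyp51 and 117 in Hsd17b7, and only that of Hmgcs1 was exact among these 3. The printed promoters are not typical of their lists: these 3 are among only 5 of 15 cholesterol synthesis genes with such a core. Ccnb2 and Top2a hold none, while 2 other mitosis genes, Kif11 and Prc1, do.

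Counted over windows from 250 bases before to 50 after the start, a CCAAT box stood in 14 of the 15 cholesterol synthesis genes found in RefSeq's table (93.3%) and in 15 of 17 mitosis genes (88.2%), beside 37.4% of all 32851 windows. Genes can have several windows, and over windows the share was 77.8% of 18 for cholesterol synthesis and 88.9% of 18 for mitosis. An SRE core with at most 1 mismatch stood in 5 of the 15 cholesterol synthesis genes (33.3%) and in 2 of the 17 mitosis genes (11.8%). Over windows its share was 27.8% for cholesterol synthesis and 16.7% for mitosis, beside 13.6% of all windows. The E-box CACGTG stood in 3 of 15 cholesterol synthesis genes and 16.7% of their windows, beside 7.15% of all windows. A direct repeat of AGGTCA with 4 bases between, the form that LXR is known to bind, stood with at most 2 mismatches in none of the 15 windows of 10 LXR targets, beside 3.02% of all windows. These counts say only which letters stand in these windows.

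The 9 microglia libraries held 35590264 to 41040268 counts in genes, and a count of 0 allows up to 0.073 to 0.084 CPM (counts per gene scaled to a common library total), for counting error only. The GW libraries lay apart from both others on the first principal component (34.3% of the variance), at 34.9 to 38.7, with saringosterol at -16.6 to -14.5 and vehicle at -22.2 to -21.5. On the second (14.5%), saringosterol lay at 12.1 to 31.5, GW at -5.6 to 2.37 and vehicle at -29.4 to -9.94. Replicate 3 lay farthest out there for saringosterol (31.5) and vehicle (-29.4). The 10 most counted genes held 18.1 to 18.3% of the counts with saringosterol, 19.6 to 20% with GW and 17.6 to 18.1% with vehicle. Macrophage markers summed to 35207 to 35811 CPM with saringosterol, 38592 to 39373 CPM with GW and 34778 to 36555 CPM with vehicle (2 of 9 members higher and 3 lower with saringosterol than with GW). Of all genes tested, 12.5% were called higher and 12.9% lower with saringosterol than with GW. Microglia markers summed to 904 to 916 CPM with saringosterol, 1104 to 1129 CPM with GW and 897 to 922 CPM with vehicle, with 5 of 7 tested members lower with saringosterol. Of these markers, Tmem119 stood at 3.31, 2.76 and 2.46 CPM with saringosterol, 3.88, 3.16 and 3.3 CPM with GW and 4.78, 4 and 3.7 CPM with vehicle. Sall1 stood at 2.59, 2.63 and 3.45 CPM with saringosterol, 3.08, 2.98 and 2.87 CPM with GW and 2.16, 2.87 and 2.06 CPM with vehicle, and Siglech was at 0 in all 9. Other members stood higher: Fcrls averaged 43.8 CPM with saringosterol, 101 CPM with GW and 68.2 CPM with vehicle. Cx3cr1 averaged 16.2, 36.2 and 46.3 CPM in the same order, and Gpr34 4.17, 10.2 and 6.43 CPM. The cultures thus carried macrophage markers throughout. Microglia markers were uneven, with Tmem119 and Sall1 under 5 CPM in every library, Siglech undetected and others such as Fcrls well above them.

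Summed markers of several other cells differed between the treatments as well. Their counts of called members stand beside the same shares of all genes, 12.5% higher and 12.9% lower, and rest on few members. Border macrophage markers summed to 333 to 339 CPM with saringosterol, 408 to 430 CPM with GW and 271 to 308 CPM with vehicle (3 of 4 tested members lower with saringosterol). Mrc1 made up most of that sum, with means of 318 CPM with saringosterol, 403 CPM with GW and 273 CPM with vehicle. Cd163 and Lyve1 lay under 1 CPM in every library, and Lyve1 was not tested. Oligodendrocyte markers summed to 77.6 to 84.5 CPM with saringosterol, 99.3 to 100 CPM with GW and 87.7 to 93 CPM with vehicle (4 of 8 lower), and astrocyte markers to 25.4 to 30.9 CPM, 44.4 to 50.3 CPM and 38.2 to 40.4 CPM in the same order (2 of 6 lower). Aldh1l1 made up most of the astrocyte sum, while Gfap lay under 1 CPM in every saringosterol and GW library. Endothelial markers, almost all of them the receptor Kdr, summed to 11.3 to 11.7 CPM with saringosterol, 4.62 to 6.04 CPM with GW and 13.1 to 15.7 CPM with vehicle (1 of 2 higher, with Cldn5 at 0). Neuron markers summed to 3.31 to 3.77 CPM with saringosterol, 4.51 to 5.25 CPM with GW and 4.24 to 5.52 CPM with vehicle (1 of 4 lower). Every neuron marker but Map2 lay under 1 CPM in every library. Neutrophil markers summed to 2.55 to 3.55 CPM, 1.58 to 1.95 CPM and 2.4 to 2.78 CPM in that order, with 1 of 1 tested member higher (S100a8) and S100a9 at 0. Fibroblast and pericyte markers lay under 1.5 CPM in sum in every library (0 of 1 tested member called, Lum and Rgs5 at 0). Lymphocyte markers summed to at most 0.555 CPM, erythroid markers to at most 0.171 CPM and hepatocyte markers to at most 0.104 CPM, with no member tested. The part of these cells in the results was not tested. In bulk RNA, fewer cells of a type and less RNA per cell cannot be told apart.

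Between saringosterol and GW, 25.5% of the 16065 genes tested were called by edgeR's quasi-likelihood test at a Benjamini-Hochberg adjusted p under 0.05. Of all genes tested, 12.5% were higher and 12.9% lower with saringosterol, and the median log2 difference was 0.008. These shares of all genes are the background for the counts that follow, and log2 differences are saringosterol minus GW unless said otherwise. The share called rose with level. It was 5.85% of the 4017 genes at 0.126 to 1.3 CPM. At 42.7 CPM and above it was 45.8% of 4016 genes, 814 of them higher and 1026 lower. The background is thus too low for lists of abundant genes, such as lysosomal genes (median 1434 CPM) and glycolysis genes (279 CPM). No list was set against genes of its own level. Values of single libraries are CPM on library sizes scaled by the trimmed mean of M-values (TMM), listed as replicates 1 to 3. Differences of each compound from vehicle use the same 3 vehicle libraries and are given side by side only.

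**Figure D1:**
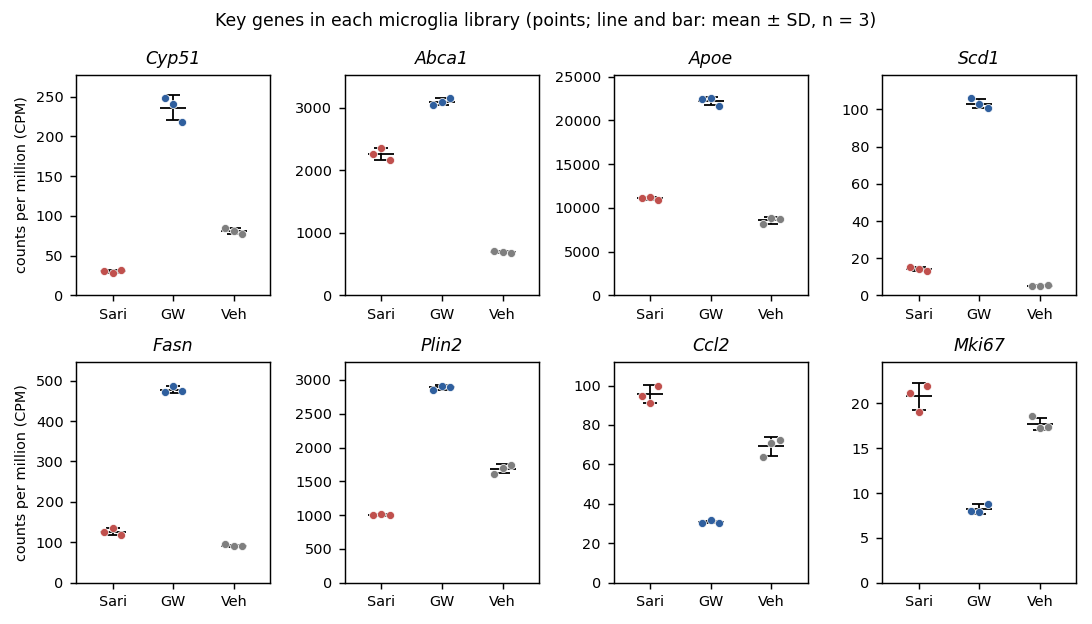
CPM of 8 genes in each microglia library (vertical axes, linear) by treatment: Sari is 10 µM saringosterol, GW is 1 µM GW and Veh is vehicle; points are libraries, the line and bar are the mean and SD of 3. Saringosterol libraries lie below GW libraries for the lipid genes from Cyp51 to Plin2, and above them for Ccl2 and Mki67.

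Every listed gene of the cholesterol pathway was lower with saringosterol than with GW, from the first step to the last. All 20 of the 20 members were called lower, against 12.9% of all genes, with log2 differences from -2.96 to -0.36 and a median of -2.14. Cyp51, the lanosterol demethylase (ENSMUSG00000001467, chromosome 5, 4081145 to 4104746), stood at 30.2, 28.8 and 31.8 CPM with saringosterol, 248, 241 and 218 CPM with GW and 85.1, 80.6 and 77 CPM with vehicle. The saringosterol libraries lay below and the GW libraries above every vehicle library. The difference between the compounds was -2.96 ± 0.055 (SE; edgeR adjusted p = 8.2e-26), a mean 7.79-fold lower in saringosterol.

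The early, mevalonate-making steps and the late sterol-modifying steps shared the direction but not the size. Hmgcs1, a synthase at the start of the mevalonate branch that carries the exact SRE core printed earlier, stood at 44.5, 44.5 and 44.8 CPM with saringosterol, 151, 158 and 132 CPM with GW and 81.6, 83.4 and 72.7 CPM with vehicle (-1.72 ± 0.06, SE; edgeR adjusted p = 4.4e-17). The 3 groups did not overlap, and vehicle lay between the compounds. Among the middle steps, Idi1, the isomerase of isopentenyl diphosphate, differed by -2.42 ± 0.105, Fdft1, squalene synthase, by -2.49 ± 0.096, and Sqle, the epoxidase often named as a second control point, by -2.15 ± 0.058. Their edgeR adjusted p-values were 1.8e-17, 6.7e-18 and 1.7e-22 in turn.

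The last enzymes spanned most of the range. Sc5d, a desaturase of the sterol ring, stood at 18.2, 16 and 16.8 CPM with saringosterol, 103, 105 and 96.8 CPM with GW and 33.6, 33.2 and 35.1 CPM with vehicle (-2.57 ± 0.06, SE; edgeR adjusted p = 3.1e-24). Hsd17b7, a keto-sterol reductase, stood at 5.99, 7.02 and 6.99 CPM with saringosterol, 24.1, 24 and 23.5 CPM with GW and 13.8, 14.6 and 12.8 CPM with vehicle (-1.84 ± 0.094, SE; edgeR adjusted p = 9.7e-16). In neither gene did the 3 groups overlap, with saringosterol lowest and GW highest. The isomerase Ebp had the least difference, at 34.6, 34.6 and 33.5 CPM with saringosterol, 45.8, 43.8 and 42.4 CPM with GW and 35.5, 34.4 and 35.8 CPM with vehicle (-0.36 ± 0.059, SE; edgeR adjusted p = 1.7e-05). For Ebp the saringosterol and vehicle libraries overlapped, and the difference from vehicle was -0.04 for saringosterol and 0.32 for GW. Beside it stood Nsdhl at -0.87 ± 0.068 and the mevalonate kinase Mvk at -0.95 ± 0.103. Other members, spread over the pathway, ran from Tm7sf2, a reductase of the sterol ring, at -2.36 ± 0.13 to Dhcr7, which reduces 7-dehydrocholesterol, at -1.33 ± 0.052. Between these stood Acat2 at -2.34 ± 0.079, Fdps at -2.32 ± 0.174, Mvd at -2.31 ± 0.079, Lss at -2.12 ± 0.062, Pmvk at -1.85 ± 0.087 and Msmo1 at -1.78 ± 0.045. Over the list, the median difference from vehicle was -0.84 for saringosterol and 0.99 for GW.

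**Figure D2:**
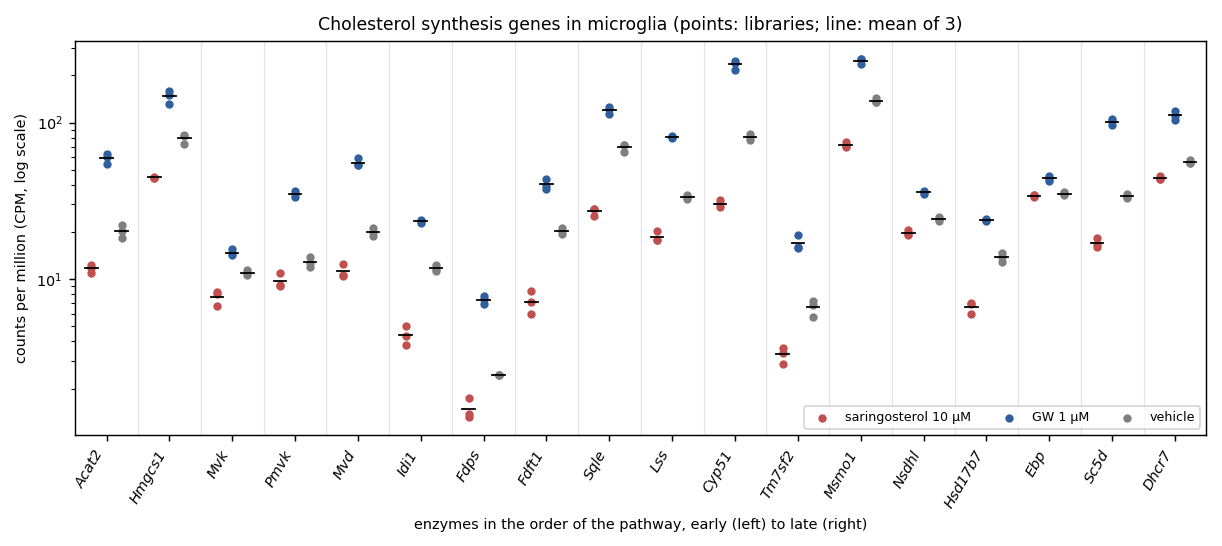
CPM of 18 cholesterol synthesis genes (vertical axis, log scale) in the order of the pathway from Acat2 to Dhcr7 (horizontal axis) for saringosterol, GW and vehicle; points are libraries and short black lines are means of 3. The saringosterol points lie below the GW points for every gene drawn, with the narrowest gap at Ebp (-0.36 on the log2 scale) and the widest at Cyp51 (-2.96).

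Genes that draw on the same precursors for other ends were called no more often than genes at large. The isoprenoid branch makes dolichol, ubiquinone side chains and the lipid anchors of proteins. Of its 9 genes 1 was lower (11.1%) and none higher, with a median of -0.03. Of all genes tested, 12.9% were lower and 12.5% higher. The member called was Nus1, a subunit of the dolichol-making prenyltransferase, at 90.6, 86.7 and 84.6 CPM with saringosterol, 105, 100 and 102 CPM with GW and 79.3, 85.2 and 78.9 CPM with vehicle (-0.23 ± 0.046, SE; edgeR adjusted p = 3e-04). Ggps1, which makes geranylgeranyl diphosphate, stood at 16.5, 13.1 and 15.3 CPM with saringosterol and 15.2, 15.4 and 15.3 CPM with GW (edgeR adjusted p = 0.85), with overlapping groups. A CCAAT box stood in 3 of the 7 branch genes found in RefSeq's table (42.9%), beside 37.4% of all windows.

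The control of SREBP and sterol uptake split into genes with large differences and genes with none called. Of 11 tested members 6 were lower and none higher (median -0.58), and 1 member was not tested. Insig1, the retention protein that is itself an SREBP target (ENSMUSG00000045294, chromosome 5, 28071363 to 28078662), stood at 40.4, 38 and 39.6 CPM with saringosterol, 224, 211 and 198 CPM with GW and 59.9, 58.9 and 63.9 CPM with vehicle (-2.42 ± 0.052, SE; edgeR adjusted p = 4e-25). All its saringosterol libraries lay below vehicle and all its GW libraries above it.

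The SREBP precursors were both lower with saringosterol than with GW, but stood differently to vehicle. Srebf1 was at 152, 146 and 136 CPM with saringosterol, 350, 354 and 348 CPM with GW and 88.6, 89.8 and 89.5 CPM with vehicle (-1.28 ± 0.041, SE; edgeR adjusted p = 1.1e-20). Srebf2, the main regulator of the cholesterol pathway, was at 79.4, 74 and 67 CPM with saringosterol, 170, 168 and 167 CPM with GW and 120, 121 and 124 CPM with vehicle (-1.19 ± 0.049, SE; edgeR adjusted p = 4.2e-18). Saringosterol libraries thus lay above vehicle for Srebf1 and below it for Srebf2, while GW libraries lay above vehicle for both. Stard4, a sterol carrier of the cytosol, differed by -1.74 ± 0.102 and Mylip, a ubiquitin ligase that degrades lipoprotein receptors, by -0.58 ± 0.05. The escort and processing machinery was near equal: Scap differed by -0.12 ± 0.058 (edgeR adjusted p = 0.16), Insig2 by -0.11 ± 0.08 (0.37), and the Golgi proteases Mbtps1 by -0.05 ± 0.047 (0.47) and Mbtps2 by -0.02 ± 0.099 (0.94). Rnf145, a ubiquitin ligase that LXR is known to induce, stood at 66.8, 70.7 and 66.9 CPM with saringosterol, 66.4, 68.7 and 61.5 CPM with GW and 43.2, 45.9 and 45.7 CPM with vehicle, with no difference called between the compounds (0.06 ± 0.053, SE; edgeR adjusted p = 0.5).

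LXR targets were mostly lower with saringosterol than with GW, by amounts that ran from none called to 2.92-fold in the means of Lpcat3. Of 13 tested members 11 were lower and none higher (median -0.49), and Apoc2 was not tested. Abca1, the transporter that loads cholesterol on apolipoproteins (ENSMUSG00000015243, chromosome 4, 53030787 to 53159895), stood at 2260, 2355 and 2160 CPM with saringosterol, 3041, 3089 and 3152 CPM with GW and 705, 689 and 678 CPM with vehicle (-0.45 ± 0.034, SE; edgeR adjusted p = 5.7e-12). Both compounds' libraries lay far above vehicle, and those of saringosterol lay below those of GW without overlap. The partner transporter Abcg1 stood at 659, 663 and 632 CPM with saringosterol, 725, 705 and 712 CPM with GW and 319, 338 and 339 CPM with vehicle, a small difference of -0.13 ± 0.035 (SE; edgeR adjusted p = 0.0051) that was not called in a fit of all 27 libraries (edgeR adjusted p = 0.1).

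At the other end stood genes of lipoproteins and phospholipids. Apoe, the main lipid carrier of the brain (ENSMUSG00000002985, chromosome 7, 19696109 to 19699188), stood at 11126, 11274 and 10898 CPM with saringosterol, 22428, 22525 and 21632 CPM with GW and 8164, 8831 and 8730 CPM with vehicle (-1 ± 0.031, SE; edgeR adjusted p = 3.8e-21). Lpcat3, which puts polyunsaturated chains into phospholipids, stood at 116, 114 and 108 CPM with saringosterol, 339, 325 and 323 CPM with GW and 90.9, 89.7 and 86.1 CPM with vehicle (-1.55 ± 0.042, SE; edgeR adjusted p = 1e-22). Per length, Apoe averaged 15608 TPM (the authors' length-scaled transcript measure) with saringosterol, 29564 TPM with GW and 11957 TPM with vehicle, above every other LXR target of the list. Apoc1, a small apolipoprotein, differed by -1.24 ± 0.071 and Pltp, the phospholipid transfer protein, by -1.01 ± 0.038. The lipase Lpl differed by -0.48 ± 0.029, at 5547, 5479 and 5603 CPM with saringosterol and 7831, 7806 and 7589 CPM with GW, and Ttc39b, which promotes turnover of LXR in mice, by -0.49 ± 0.079.

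Arl4c, a small GTPase of cholesterol trafficking and a known LXR target, showed no difference called between the compounds. It stood at 77.8, 82.3 and 80.8 CPM with saringosterol, 80.2, 83.5 and 82.8 CPM with GW and 52.7, 56.3 and 56.3 CPM with vehicle, a difference of -0.03 ± 0.047 (SE; edgeR adjusted p = 0.67). The saringosterol and GW libraries overlapped and all 6 lay above vehicle. Nr1h3, the gene of LXR alpha itself, stood at 26.7, 26.2 and 25.6 CPM with saringosterol, 25, 21.3 and 24.9 CPM with GW and 19.5, 22.3 and 19.5 CPM with vehicle, and was not called between the compounds (0.14 ± 0.078, SE; edgeR adjusted p = 0.21). Its saringosterol libraries lay just above those of GW, of which 1 lay within the vehicle range. Over the list, the median difference from vehicle was 0.54 for saringosterol and 1.37 for GW.

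Among 13 tested nuclear receptors and cofactors 4 were lower with saringosterol and none higher (median -0.04; Rxrg and Ppara were not tested). The 27-library fit called 2 lower, and 1 or 2 members were called higher without vehicle replicate 1 or 3 or without saringosterol replicate 1 or 2. The LXR partner Rxra differed by -0.27 ± 0.045 (edgeR adjusted p = 1.9e-05) and Rara by -0.26 ± 0.069 (0.0055). The corepressor Ncor1 differed by -0.13 ± 0.042, and its call was lost in the 27-library fit (edgeR adjusted p = 0.082). Nr1h2 (LXR beta) stood at 111, 110 and 105 CPM with saringosterol, 113, 112 and 114 CPM with GW and 117, 118 and 118 CPM with vehicle (edgeR adjusted p = 0.4). Of 11 tested genes of sterol transport and esterification 5 were lower and 1 higher (median -0.08; Cyp7b1 was not tested). The one higher was Ch25h, which makes the oxysterol 25-hydroxycholesterol, at 4.88, 5.1 and 6.13 CPM with saringosterol, 1.65, 1.56 and 1.33 CPM with GW and 8.69, 9.11 and 9.09 CPM with vehicle (1.82 ± 0.162, SE; edgeR adjusted p = 3e-10, 0.12 in the 27-library fit). Its 3 groups did not overlap, with saringosterol between GW and vehicle, and without saringosterol replicate 3 the list had 2 members higher. Cyp27a1, another sterol hydroxylase, differed by -0.49 ± 0.1, the lysosomal exporter Npc1 by -0.22 ± 0.052, and the esterifying enzyme Soat1, at 1044, 1020 and 1031 CPM with saringosterol and 1048, 1020 and 1005 CPM with GW, was not called.

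**Figure D3:**
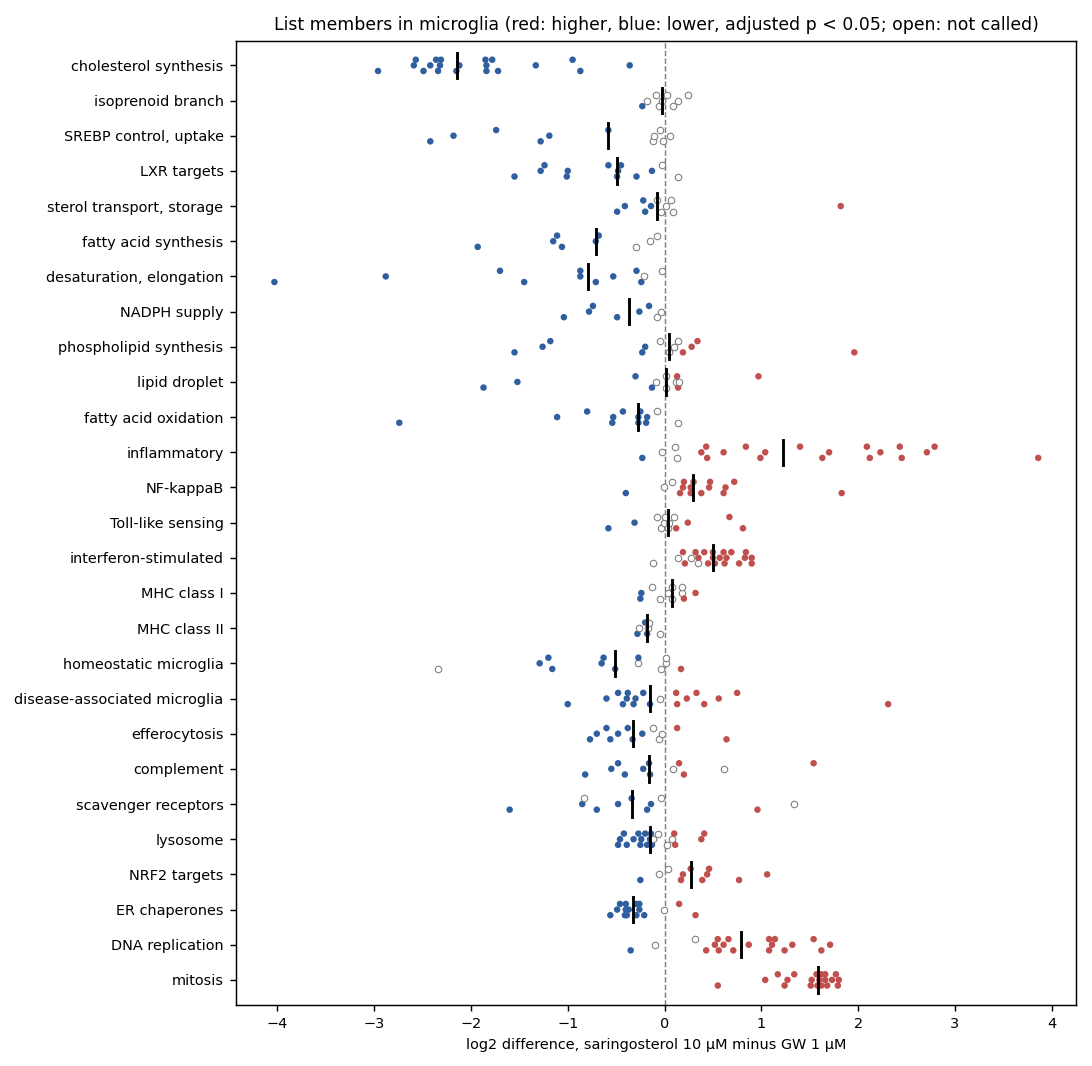
Log2 differences, saringosterol minus GW (horizontal axis), of the tested members of 27 gene lists (rows); each point is a gene, red where called higher, blue where called lower at an edgeR adjusted p under 0.05 and open where not called, with black ticks at list medians and a dashed line at the median of all genes (0.008). Cholesterol synthesis lies wholly to the left (median -2.14) and mitosis wholly to the right (median 1.59).

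Fatty acid synthesis was lower with saringosterol than with GW, and lay nearer to vehicle with saringosterol. Of 9 members 6 were lower and none higher (median -0.71), and the median difference from vehicle was -0.1 for saringosterol and 0.91 for GW. Fasn, the fatty acid synthase (ENSMUSG00000025153, chromosome 11, 120805846 to 120824547), stood at 126, 135 and 117 CPM with saringosterol, 471, 488 and 475 CPM with GW and 94.8, 90.1 and 90.3 CPM with vehicle (-1.93 ± 0.045, SE; edgeR adjusted p = 2.5e-24). The 3 groups did not overlap and saringosterol lay just above vehicle. Acly, which makes cytosolic acetyl-CoA from citrate, stood at 256, 260 and 245 CPM with saringosterol, 559, 545 and 537 CPM with GW and 298, 283 and 293 CPM with vehicle (-1.11 ± 0.037, SE; edgeR adjusted p = 3e-20), so that here saringosterol lay below vehicle. The acetate-activating enzyme Acss2 differed by -1.15 ± 0.077, the citrate carrier Slc25a1 by -1.06 ± 0.045, and the carboxylase Acaca by -0.68 ± 0.088. The mitochondrial enzymes of the list, Mcat and Oxsm, were not called (edgeR adjusted p = 0.19 and 0.65).

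The widest lipid difference lay in a desaturase of polyunsaturated fatty acids. Of 12 desaturases and elongases 10 were lower and none higher (median -0.79). Fads2, the first desaturase of long polyunsaturated chains (ENSMUSG00000024665, chromosome 19, 10062765 to 10101746), stood at 9.4, 10.4 and 11.9 CPM with saringosterol, 185, 164 and 169 CPM with GW and 19.8, 20.5 and 19.8 CPM with vehicle (-4.03 ± 0.068, SE; edgeR adjusted p = 2.6e-26), a mean 16.4-fold lower in saringosterol. All saringosterol libraries lay below vehicle and all GW libraries far above it. Scd1, which makes monounsaturated fatty acids (ENSMUSG00000037071, chromosome 19, 44394455 to 44407879), stood at 15.1, 14 and 12.9 CPM with saringosterol, 106, 103 and 101 CPM with GW and 5.21, 4.98 and 5.57 CPM with vehicle (-2.88 ± 0.066, SE; edgeR adjusted p = 1.6e-24), with both compounds above vehicle.

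Scd2, the more abundant paralog in these cells, differed by -1.45 ± 0.035, at 1323, 1356 and 1313 CPM with saringosterol, 3755, 3615 and 3550 CPM with GW and 601, 552 and 555 CPM with vehicle. The Scd genes are similar in sequence, and the counting of reads shared between them is not given in the sources used here. Fads1 and the elongase Elovl5 each differed by -0.87, and on the other side of vehicle from each other: the difference of saringosterol from vehicle was -0.26 for Fads1 and 0.41 for Elovl5. Fads3, a paralog next to Fads1 and Fads2 on chromosome 19, stood at 4.96, 6.4 and 5.57 CPM with saringosterol and 5.27, 6.23 and 5.82 CPM with GW and was not called (edgeR adjusted p = 0.9).

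Enzymes that supply the reducing power for these steps followed, with 6 of 8 lower and none higher (median -0.37). Idh1, the cytosolic isocitrate dehydrogenase, stood at 339, 330 and 354 CPM with saringosterol, 604, 584 and 569 CPM with GW and 282, 281 and 275 CPM with vehicle (-0.78 ± 0.037, SE; edgeR adjusted p = 1.7e-16). The malic enzyme Me1 differed by -0.74 ± 0.077 and the pentose phosphate enzymes Tkt by -0.49 ± 0.038 and G6pdx by -0.26 ± 0.039. In phospholipid synthesis, 5 of 13 genes were lower and 4 higher (median 0.05). The lower ones included Pcyt2, of the phosphatidylethanolamine route, at -1.26 ± 0.07 and the phosphatase Lpin1 at -1.18 ± 0.069. The higher ones included Pcyt1a, of the phosphatidylcholine route, at 0.19 ± 0.047, Lpcat2, which makes platelet-activating factor, at 0.34 ± 0.058, and Mboat1 at 1.96 ± 0.287.

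Of 12 tested lipid droplet genes 4 were lower and 3 higher (median 0.01; Plin4 was not tested). Plin2, the main coat protein of droplets in macrophages (ENSMUSG00000028494, chromosome 4, 86648386 to 86670060), stood at 1004, 1018 and 995 CPM with saringosterol, 2854, 2918 and 2895 CPM with GW and 1616, 1699 and 1749 CPM with vehicle (-1.52 ± 0.033, SE; edgeR adjusted p = 7.2e-25). The saringosterol libraries were the lowest of the 9 and the GW libraries the highest, with no overlap. Mgll, the monoacylglycerol lipase that also breaks down an endocannabinoid, went the other way, at 107, 105 and 105 CPM with saringosterol, 56.1, 57.4 and 48.4 CPM with GW and 96, 89.1 and 88.2 CPM with vehicle (0.97 ± 0.055, SE; edgeR adjusted p = 2e-14). Dgat1 and Dgat2, the enzymes of the last step of triglyceride synthesis, were not called (edgeR adjusted p = 0.91 and 0.57). Without GW replicate 2 the list had 2 members lower and 1 higher, and without saringosterol replicate 2 it had 2 lower.

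Fatty acid oxidation and its carriers were lower in 11 of 13 tested members and higher in none (median -0.27; Pdk4 was not tested). Angptl4, a secreted lipase inhibitor and a known target of peroxisome proliferator-activated receptors, stood at 1.57, 1.75 and 2.12 CPM with saringosterol, 11.3, 11.6 and 13.3 CPM with GW and 2.57, 4.41 and 4.31 CPM with vehicle (-2.74 ± 0.178, SE; edgeR adjusted p = 9.1e-13). Cpt1a, the gate for entry into mitochondria, stood at 90.1, 83.7 and 81.9 CPM with saringosterol, 183, 186 and 184 CPM with GW and 118, 114 and 123 CPM with vehicle (-1.11 ± 0.045, SE; edgeR adjusted p = 2.9e-18). Both were lowest with saringosterol and highest with GW. The enzymes of the spiral itself differed less, Hadhb by -0.54 ± 0.051, Acadm by -0.27 ± 0.046 and Acadl by -0.19 ± 0.052, while Cpt2 and Acadvl were not called. Without saringosterol replicate 3, 1 member was called higher.

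**Figure D4:**
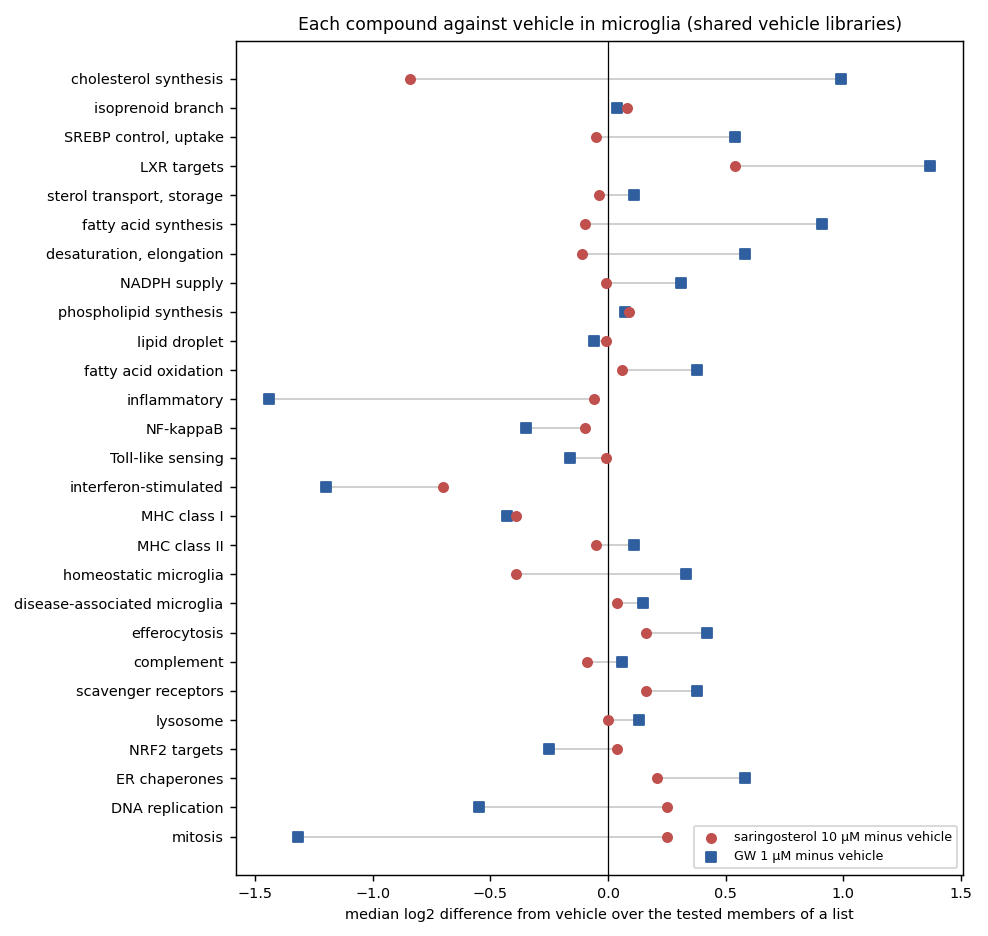
Median log2 difference from vehicle (horizontal axis) over the tested members of each gene list (rows), circles for saringosterol and squares for GW; both compounds share the same 3 vehicle libraries. For cholesterol synthesis the circle lies at -0.84 and the square at 0.99, and for inflammatory genes the circle lies at -0.06 and the square at -1.44.

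Inflammatory genes stood the other way round, higher with saringosterol than with GW. Of 22 tested cytokines, chemokines and mediators 18 were higher, against 12.5% of all genes, and 1 was lower (median 1.22; Il6 and Il12b were not tested). The median difference from vehicle was -0.06 for saringosterol and -1.44 for GW. Il1rn, the antagonist of the interleukin-1 receptor (ENSMUSG00000026981, chromosome 2, 24336853 to 24351494), stood at 814, 827 and 861 CPM with saringosterol, 177, 179 and 179 CPM with GW and 852, 838 and 876 CPM with vehicle (2.23 ± 0.036, SE; edgeR adjusted p = 1.2e-27). Saringosterol and vehicle libraries overlapped, and the GW libraries lay far below both. Ccl2, a chemokine for monocytes (ENSMUSG00000035385, chromosome 11, 82035571 to 82037453), stood at 94.7, 91.3 and 100 CPM with saringosterol, 30.5, 31.6 and 30.5 CPM with GW and 63.7, 71.1 and 72.4 CPM with vehicle (1.63 ± 0.056, SE; edgeR adjusted p = 5.5e-20), here with saringosterol above vehicle.

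Neighbouring chemokines on chromosome 11 followed it. Ccl7 differed by 2.09 ± 0.097, at 35.9, 34.3 and 37.2 CPM with saringosterol and 7.12, 9.47 and 8.62 CPM with GW, and Ccl12 by 2.12 ± 0.146. The chemokines Ccl3 and Ccl4 differed less, by 0.44 ± 0.059 and 0.38 ± 0.053. Ccl5, a chemokine for T cells, stood at 19.8, 27.1 and 32.9 CPM with saringosterol, 7.01, 9.3 and 8.19 CPM with GW and 47.6, 55.3 and 69.6 CPM with vehicle (1.7 ± 0.256, SE; edgeR adjusted p = 0.0031), with saringosterol between the other groups.

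Enzymes that make mediators showed some of the largest ratios at low levels. Ptgs2, the inducible cyclooxygenase, stood at 3.99, 2.98 and 4.53 CPM with saringosterol, 0.598, 0.956 and 0.585 CPM with GW and 5.26, 5.39 and 3.91 CPM with vehicle (2.43 ± 0.237, SE; edgeR adjusted p = 2e-09). Nos2, the inducible nitric oxide synthase, stood at 1.06, 1.41 and 0.91 CPM with saringosterol, 0.0285, 0.116 and 0.0798 CPM with GW and 3.12, 3.87 and 4.09 CPM with vehicle (edgeR adjusted p = 1.6e-08). The GW libraries lay near what a count of 0 allows for Nos2, so its fitted difference depends on few counts and is not given.

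The interleukin-1 cytokines themselves stood differently to vehicle than their antagonist. Il1b, the secreted form, stood at 1.96, 2.66 and 3.67 CPM with saringosterol, 1.34, 1.36 and 1.3 CPM with GW and 9.65, 13 and 12.6 CPM with vehicle (1.04 ± 0.21, SE; edgeR adjusted p = 0.00036), with both compounds below vehicle. Il1a was the member called lower, at 38.8, 33.9 and 37.8 CPM with saringosterol, 40.1, 47 and 42.9 CPM with GW and 11.5, 10.7 and 9.59 CPM with vehicle (-0.23 ± 0.073, SE; edgeR adjusted p = 0.017). Its saringosterol and GW libraries lay apart but close, both far above vehicle, and its call was lost in the 27-library fit and without GW replicate 2 or saringosterol replicate 2. Tnf stood at 19.3, 18.6 and 22 CPM with saringosterol, 12.7, 14.2 and 12.6 CPM with GW and 20, 22.8 and 19.6 CPM with vehicle (0.61 ± 0.09, SE; edgeR adjusted p = 4.2e-06). Il18, Nlrp3 and Il10 were not called (edgeR adjusted p = 0.91, 0.47 and 0.9).

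Genes of the NF-kB system, the transcription factors that drive many of these cytokines, were higher in 13 of 16 members and lower in 1 (median 0.29). The inhibitors Nfkbie and Nfkbia, which the pathway itself induces, differed by 0.72 ± 0.066 and 0.38 ± 0.057, and the adaptor Traf1 by 1.83 ± 0.219. Nfkbie stood at 38.3, 41.3 and 41.2 CPM with saringosterol, 25.5, 25.5 and 22.2 CPM with GW and 45.2, 42.9 and 43.2 CPM with vehicle (edgeR adjusted p = 5.6e-10), with saringosterol just under vehicle and GW well below both. The adhesion molecule Icam1 differed by 0.61 ± 0.057, while the subunits differed less, Rela by 0.16 ± 0.046 and Rel by 0.27 ± 0.068, and Nfkb1 was not called. Nfkbiz, an atypical nuclear inhibitor protein, was the one lower, at -0.4 ± 0.116 (edgeR adjusted p = 0.01), and was not called in the 27-library fit.

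Sensors of microbes moved both ways, with 4 of 13 higher and 2 lower (median 0.04). Only 2 were called higher in the 27-library fit and without GW replicate 3, saringosterol replicate 1 or saringosterol replicate 2. Tlr2, which senses bacterial lipopeptides, stood at 71.3, 74.9 and 70.9 CPM with saringosterol, 43.4, 41.7 and 38.7 CPM with GW and 65, 59.7 and 61 CPM with vehicle (0.81 ± 0.055, SE; edgeR adjusted p = 7.7e-13), and the coreceptor Cd14 differed by 0.67 ± 0.036. Tlr8 and Tlr1 were lower, by -0.58 ± 0.053 and -0.31 ± 0.054, the last from a pair of similar genes with Tlr6, which was not called. Tlr4, the receptor for lipopolysaccharide, stood at 103, 103 and 107 CPM with saringosterol and 100, 103 and 103 CPM with GW and was not called (edgeR adjusted p = 0.61).

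Interferon-stimulated genes were higher with saringosterol than with GW in 19 of 23 members and lower in none (median 0.5). The median difference from vehicle was -0.7 for saringosterol and -1.2 for GW, so both compounds stood below vehicle. Ddx58, a sensor of viral RNA, stood at 120, 109 and 115 CPM with saringosterol, 77.5, 84.9 and 88.5 CPM with GW and 175, 170 and 179 CPM with vehicle (0.45 ± 0.049, SE; edgeR adjusted p = 1.5e-08). Its groups did not overlap. Slfn2, which restrains proliferation of immune cells in mice, differed by 0.57 ± 0.038.

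This list depended on the fit. In a fit of all 27 libraries, where the cell types share a dispersion estimate, only 1 of 23 members was called higher, and the edgeR adjusted p was 0.19 for Isg15, 0.16 for Usp18 and 0.1 for Rsad2. GW replicate 1 was the lowest GW library for most members with large differences, such as Ifit2 at 169, 176 and 175 CPM with saringosterol, 61.7, 113 and 105 CPM with GW and 321, 362 and 354 CPM with vehicle (0.9 ± 0.212, SE; edgeR adjusted p = 0.023). The Ifit2 call was lost in the 27-library fit (edgeR adjusted p = 0.34) and in a fit of the 6 saringosterol and GW libraries alone (0.072). Without GW replicate 1, 1 member was called lower. Stat2, a signal transducer of interferons, was not called, at 133, 135 and 120 CPM with saringosterol and 130, 148 and 144 CPM with GW (edgeR adjusted p = 0.12), nor was Ifit3 (0.25). The Ifit genes are close copies on chromosome 19, so their counts are uncertain.

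Antigen presentation differed little between the compounds. Of 11 class I genes 2 were higher and 2 lower (median 0.08), with Psmb10, an immunoproteasome subunit, at 0.32 ± 0.043 and the presenting molecule H2-K1 at -0.25 ± 0.043 (edgeR adjusted p = 1.1e-06 and 8.2e-05). The H2-K1 and H2-D1 calls were lost in the 27-library fit (edgeR adjusted p = 0.51 and 0.095). The class I list had 1 member higher and none lower in that fit, and without single libraries 1 to 4 higher (4 without GW replicate 2; 1 without vehicle replicate 2, GW replicate 1, GW replicate 3 or saringosterol replicate 1). Against vehicle, the class I medians were -0.39 for saringosterol and -0.43 for GW. Of 7 class II genes 3 were lower and none higher (median -0.18), among them the invariant chain Cd74 at 374, 383 and 370 CPM with saringosterol, 436, 423 and 420 CPM with GW and 401, 421 and 417 CPM with vehicle (-0.18 ± 0.036, SE; edgeR adjusted p = 0.00021, 0.44 in the 27-library fit). That fit called 1 class II member lower. H2 genes include near-identical copies, and their counts are uncertain.

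Genes of resting microglia were lower with saringosterol in 7 of 13 tested members and higher in 1 (median -0.51). Cx3cr1, the receptor for the neuronal chemokine fractalkine, stood at 14.8, 20 and 13.8 CPM with saringosterol, 32.9, 38.7 and 37 CPM with GW and 50, 42.2 and 46.5 CPM with vehicle (-1.16 ± 0.122, SE; edgeR adjusted p = 1.3e-05), with both compounds below vehicle. P2ry12, the purine receptor that guides processes to injury, stood at 12.7, 13.2 and 14.8 CPM with saringosterol, 22.9, 20.7 and 19.2 CPM with GW and 11, 10.1 and 12.7 CPM with vehicle (-0.63 ± 0.096, SE; edgeR adjusted p = 7.2e-06), with GW above vehicle and saringosterol reaching down to the highest vehicle library. The Fc receptor-like gene Fcrls differed by -1.2 ± 0.051, Gpr34 by -1.29 ± 0.138, P2ry13 by -0.65 ± 0.057 and the transcription factor Mef2c by -0.51 ± 0.045. Csf1r, the receptor for M-CSF, stood at 1053, 1085 and 988 CPM with saringosterol, 1049, 1034 and 1022 CPM with GW and 1370, 1343 and 1384 CPM with vehicle and was not called between the compounds (edgeR adjusted p = 0.89). Tgfbr1 was the one higher, at 0.17 ± 0.047, and was not called in the 27-library fit.

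The ligand of Csf1r gave one of the largest differences of all. Csf1, which encodes M-CSF (ENSMUSG00000014599, chromosome 3, 107741048 to 107760469), stood at 79.7, 84.4 and 78.8 CPM with saringosterol, 15.7, 16.9 and 16.5 CPM with GW and 84, 98.6 and 91.7 CPM with vehicle (2.31 ± 0.062, SE; edgeR adjusted p = 1e-22). The GW libraries lay far below both others, and saringosterol overlapped vehicle at its lower end. All cultures received M-CSF in the medium. Of the 5 tested genes of colony-stimulating factors and their receptors 2 were higher and 1 lower (median 0.01; Csf2, Csf3 and Il34 were not tested). The shared receptor chain Csf2rb differed by 0.29 ± 0.042 and Csf3r by -0.49 ± 0.06.

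Among 19 genes of disease-associated microglia, a state described around plaques, 8 were higher and 10 lower (median -0.15). The lower ones were led by Apoe, and included the phagocytic receptor Axl at -0.6 ± 0.04, the lipid sensor Trem2 at -0.38 ± 0.035 and the cathepsins Ctsd at -0.39 ± 0.03 and Ctsb at -0.32 ± 0.029. Trem2 stood at 556, 558 and 521 CPM with saringosterol, 716, 707 and 699 CPM with GW and 509, 529 and 527 CPM with vehicle (edgeR adjusted p = 9.8e-10). The higher ones were led by Csf1 and the protease inhibitor Cst7 at 0.75 ± 0.058, and included the integrin Itgax at 0.56 ± 0.051, Ctsl at 0.41 ± 0.03 and Lgals3 at 0.33 ± 0.029. The list was thus split, with lipid-handling members such as Apoe, Lpl and Fabp5 on the lower side.

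Genes for clearing dead cells were lower in 8 of 13 and higher in 2 (median -0.33). Gas6 and Pros1, which bridge dying cells to their receptors, differed by -0.56 ± 0.038 and -0.33 ± 0.041. Mertk, their main receptor in macrophages and a known LXR target, stood at 216, 221 and 208 CPM with saringosterol, 257, 254 and 248 CPM with GW and 142, 143 and 146 CPM with vehicle (-0.23 ± 0.038, SE; edgeR adjusted p = 2e-05), with both compounds above vehicle. Mfge8, another bridging protein, went the other way, at 372, 356 and 337 CPM with saringosterol, 243, 219 and 220 CPM with GW and 393, 387 and 394 CPM with vehicle (0.64 ± 0.043, SE; edgeR adjusted p = 6.8e-13). Only 1 member was called higher in the 27-library fit and without GW replicate 2 or saringosterol replicate 2.

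Of 11 scavenger receptors 7 were lower and 1 higher (median -0.34). Cd5l, a secreted protein of macrophages and a known LXR target, stood at 8.48, 7.12 and 8.35 CPM with saringosterol, 21.3, 23.2 and 27.9 CPM with GW and 2.5, 2.72 and 3.01 CPM with vehicle (-1.6 ± 0.109, SE; edgeR adjusted p = 1.1e-12). Scarb1, the receptor for high-density lipoprotein, differed by -0.85 ± 0.043. Marco, a receptor for particles and bacteria, was the one higher, at 361, 346 and 319 CPM with saringosterol, 172, 177 and 180 CPM with GW and 289, 283 and 280 CPM with vehicle (0.96 ± 0.042, SE; edgeR adjusted p = 2.3e-17, 0.13 in the 27-library fit). Of 12 complement genes 7 were lower and 3 higher (median -0.16), with the anaphylatoxin receptor C5ar1 at -0.55 ± 0.031 and properdin, Cfp, at -0.48 ± 0.04, while C3 differed by 0.2 ± 0.048. The 27-library fit called 4 scavenger receptors and 4 complement genes lower and none of either higher.

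Lysosomal genes were lower in 13 of 21 and higher in 4 (median -0.15). Glb1, the beta-galactosidase, and the calcium channel Mcoln1 differed by -0.48 ± 0.047 and -0.46 ± 0.047, while the proton pump subunit Atp6v0d2 differed by 0.38 ± 0.036. Tfeb, the regulator of lysosomal genes, was not called (edgeR adjusted p = 0.12). Only 2 lysosomal genes were called higher in the 27-library fit and without GW replicate 3 or saringosterol replicate 1. Of 11 tested receptors of migration 4 were higher and 3 lower (median 0.08; Ccr7 was not tested), with the chemokine receptor Ccr1 at 0.57 ± 0.041 and the integrin Itgal at 0.65 ± 0.083, and 2 higher in the 27-library fit. In the Ms4a family of membrane proteins 4 of 8 tested members were higher and none lower (median 0.39; Ms4a1 and Ms4a4d were not tested), with Ms4a7 at 579, 564 and 599 CPM with saringosterol, 427, 450 and 421 CPM with GW and 723, 756 and 722 CPM with vehicle (0.42 ± 0.037, SE; edgeR adjusted p = 1.7e-10). The 27-library fit called 2 of the family higher, and 1 was lower without GW replicate 3. Ms4a genes are similar neighbours on chromosome 19, and their counts are uncertain. Of 8 tested genes of alternative activation 2 were higher and 2 lower (median -0.29; Retnla, Pdcd1lg2 and Ccl17 were not tested), with the mannose receptor Mrc1 at -0.34 ± 0.04 (edgeR adjusted p = 6.7e-08, 0.086 in the 27-library fit) and the chemokine Ccl24 at 1.86 ± 0.431, both Ccl24 groups lying under 1 CPM. The 27-library fit called 1 of that list in each direction, and 1 was lower without saringosterol replicate 1.

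Genes of cell division were higher with saringosterol than with GW, and most clearly those of mitosis. All 20 mitosis genes were higher, against 12.5% of all genes, with differences from 0.55 to 1.8 and a median of 1.59. The median difference from vehicle was 0.25 for saringosterol and -1.32 for GW. Mki67, a nuclear protein of dividing cells (ENSMUSG00000031004, chromosome 7, 135689784 to 135716361), stood at 21.2, 19.1 and 22 CPM with saringosterol, 7.98, 7.85 and 8.83 CPM with GW and 18.6, 17.3 and 17.4 CPM with vehicle (1.34 ± 0.091, SE; edgeR adjusted p = 9.2e-13). Ccnb2, the mitotic cyclin whose promoter is printed earlier, stood at 10.7, 9.09 and 10.5 CPM with saringosterol, 3.13, 2.75 and 3.54 CPM with GW and 8.64, 9.11 and 10 CPM with vehicle (1.68 ± 0.134, SE; edgeR adjusted p = 2.7e-11). In both genes the GW libraries lay below all 6 others. Top2a, a topoisomerase, differed by 1.27 ± 0.087, the spindle kinase Plk1 by 1.8 ± 0.154 and the motor Cenpe by 1.79 ± 0.146, while Cdk1 differed least, by 0.55 ± 0.079.

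Replication genes were higher in 17 of 20 and lower in 1 (median 0.79). Rrm2, the regulated subunit of ribonucleotide reductase, stood at 25.7, 23 and 23 CPM with saringosterol, 7.55, 6.95 and 8.78 CPM with GW and 18.8, 17 and 17.9 CPM with vehicle (1.62 ± 0.094, SE; edgeR adjusted p = 2.3e-14). The helicase subunits ran from Mcm2 at 0.52 ± 0.072 to Mcm5 at 1.32 ± 0.083. Pcna, the sliding clamp, was the one lower, at 148, 143 and 143 CPM with saringosterol, 178, 194 and 182 CPM with GW and 130, 139 and 141 CPM with vehicle (-0.35 ± 0.043, SE; edgeR adjusted p = 1.9e-07), with GW above vehicle and saringosterol, at its lowest, above all vehicle libraries. E2f1, which drives entry into replication, was not called (edgeR adjusted p = 0.27).

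Of 11 cyclins, inhibitors and regulators of the cycle 3 were higher and 1 lower (median 0.07). Cdkn1c, an inhibitor of cyclin-dependent kinases, stood at 7.23, 7.55 and 7.28 CPM with saringosterol, 1.88, 1.74 and 1.38 CPM with GW and 9.77, 9.16 and 8.32 CPM with vehicle (2.14 ± 0.153, SE; edgeR adjusted p = 2.5e-12). This inhibitor was thus higher with saringosterol than with GW, as mitosis genes were, but it was highest with vehicle. Cdkn1a, the inhibitor known as p21, stood at 303, 295 and 300 CPM with saringosterol, 283, 282 and 278 CPM with GW and 359, 396 and 374 CPM with vehicle and was not called (edgeR adjusted p = 0.078). Neither were the cyclins Ccnd1, Ccnd2 and Ccnd3 nor Myc (edgeR adjusted p = 0.84, 0.2, 0.16 and 0.41).

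Stress and growth programmes differed less, and in both directions. Targets of Nrf2, the antioxidant transcription factor, were higher in 8 of 11 and lower in 1 (median 0.27). Nqo1, a quinone reductase, stood at 19.5, 19.8 and 17.7 CPM with saringosterol, 10.2, 7.79 and 9.33 CPM with GW and 25.2, 22.9 and 22.3 CPM with vehicle (1.06 ± 0.096, SE; edgeR adjusted p = 3.7e-10), while the haem oxygenase Hmox1 was lower, by -0.25 ± 0.036. The 27-library fit called 5 of that list higher and none lower. Chaperones of the endoplasmic reticulum were lower in 13 of 16 and higher in 2 (median -0.33), with medians from vehicle of 0.21 for saringosterol and 0.58 for GW. Calr, calreticulin, stood at 1065, 1078 and 1050 CPM with saringosterol, 1588, 1562 and 1554 CPM with GW and 892, 864 and 905 CPM with vehicle (-0.56 ± 0.032, SE; edgeR adjusted p = 1.8e-14). The higher ones, Ddit3 at 0.32 ± 0.077 and Atf4 at 0.15 ± 0.048, encode transcription factors of the integrated stress response and not chaperones. Neither was called in the 27-library fit, and only 1 without GW replicate 1 or saringosterol replicate 2.

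Of 11 genes of the amino acid response 5 were lower and 1 higher (median -0.16), with the serine synthesis enzyme Phgdh at -0.59 ± 0.077 and the pseudokinase Trib3 at 0.58 ± 0.073. The lower ones were 2 in the 27-library fit and 3 without GW replicate 2. Immediate early genes were higher in 8 of 18 and lower in 2 (median 0.19), led by the phosphatase Dusp1 at 79.1, 80.2 and 75.6 CPM with saringosterol, 38, 34.7 and 39.3 CPM with GW and 92.2, 104 and 99.4 CPM with vehicle (1.07 ± 0.055, SE; edgeR adjusted p = 1.4e-15). Fos was not called (edgeR adjusted p = 0.071). The lower calls of that list were lost in the 27-library fit, with no filter on low counts and without GW replicate 1, and 1 was left without GW replicate 3 or any single saringosterol library. Cytoskeletal genes were higher in 7 of 20 tested and lower in 3 (median 0.06; Tagln was not tested), with the nuclear lamin Lmna at 0.59 ± 0.037, vimentin, Vim, at 0.49 ± 0.034, and Actb not called. The 27-library fit called 1 cytoskeletal gene lower. Glycolysis genes were higher in 4 of 15 and lower in 2 (median -0.01), with the regulator Pfkfb3 at 0.47 ± 0.056 and Gapdh not called (edgeR adjusted p = 0.9). Only 1 glycolysis gene was called lower in the 27-library fit and without GW replicate 1, GW replicate 3 or saringosterol replicate 3.

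Ribosomal protein genes shifted by a small amount in 1 direction. Of 81 tested 50 were lower with saringosterol and 1 higher, with differences from -0.48 to 0.54 and a median of -0.19. The medians from vehicle were 0.11 for saringosterol and 0.31 for GW. Their summed share of counts was 0.71 to 0.716% with saringosterol, 0.776 to 0.793% with GW and 0.641 to 0.67% with vehicle, without overlap. Many of these genes have processed pseudogenes that share their sequence, so single members are uncertain. Of 17 tested genes of the mitochondrial genome 2 were higher and 1 lower (median 0.2), and their share of counts was 0.226 to 0.326% over the 9 libraries.

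Genes outside the lists gave some of the largest differences among those with a mean of at least 5 CPM. On the higher side were H2-M2, a class I-like gene at 2.68 ± 0.073, Clec4e, a receptor for mycobacterial lipid, at 2.64 ± 0.078, Kif2c, a mitotic motor, at 2.2 ± 0.156, and Ass1, the argininosuccinate synthase, at 2.01 ± 0.07, whose near-copy Gm5424 was also named and is uncertain. Plcxd2, of the phospholipase C family by its domain, stood at 9.57, 8.69 and 8.59 CPM with saringosterol, 1.82, 2.29 and 2.13 CPM with GW and 4.46, 3.59 and 3.33 CPM with vehicle (2.1 ± 0.159, SE; edgeR adjusted p = 9.2e-12), so that saringosterol lay above both others. On the lower side, Chst10, a sulfotransferase of glycans, stood at 23.3, 22.4 and 23.3 CPM with saringosterol, 145, 144 and 133 CPM with GW and 24.4, 25 and 26.3 CPM with vehicle (-2.62 ± 0.054, SE; edgeR adjusted p = 2.5e-25). Saringosterol and vehicle lay close for Chst10, and GW far above.

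Ighm, the constant region of immunoglobulin mu, had the widest fitted difference and stands on few counts on 1 side. It was at 0, 0.159 and 0.482 CPM with saringosterol, 31.1, 29 and 24.3 CPM with GW and 0.576, 0.154 and 0.37 CPM with vehicle (edgeR adjusted p = 1.9e-05). It lies among many similar genes and its saringosterol libraries lie at or near what a count of 0 allows, so no fold is given. The lymphocyte markers, B cell genes among them, summed to 0.0975 to 0.495 CPM with saringosterol and 0.0825 to 0.311 CPM with GW.

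The 6 most abundant genes at least 2-fold higher were Il1rn, given above, and Mmp13, Mmp9, Mmp8, Clec4n and Slamf8. Mmp13, a collagenase, stood at 710, 667 and 714 CPM with saringosterol, 319, 349 and 364 CPM with GW and 736, 791 and 806 CPM with vehicle (1.02 ± 0.045, SE; edgeR adjusted p = 5.2e-15). Mmp9, a gelatinase, stood at 515, 568 and 505 CPM with saringosterol, 219, 220 and 219 CPM with GW and 664, 653 and 631 CPM with vehicle (1.27 ± 0.04, SE; edgeR adjusted p = 6.9e-21). In both, GW libraries lay far below the others, and all saringosterol libraries lay just below all vehicle libraries. Mmp8, the neutrophil-type collagenase, differed by 1.54 ± 0.044, the lectin Clec4n by 1.33 ± 0.041 and the membrane receptor Slamf8 by 1.03 ± 0.048. On the lower side, beside the lipid genes given above, stood Camk1, a calcium-dependent kinase, at 218, 211 and 204 CPM with saringosterol, 464, 466 and 464 CPM with GW and 214, 221 and 229 CPM with vehicle (-1.14 ± 0.038, SE; edgeR adjusted p = 3e-20).

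The same pair of treatments was given to hepatocytes and to macrophages grown from bone marrow (BMDM), and the difference between the compounds was set against that in microglia in 1 fit of all 27 libraries. The hepatocyte medium differed from that of microglia and BMDM, so that medium and cell type cannot be told apart there. Between microglia and BMDM 4.12% of 18979 genes differed in this way, 1.87% more positive and 2.24% more negative in microglia. Between microglia and hepatocytes 6.72% did, 3.97% more positive and 2.75% more negative. Plin2 differed between the compounds by -1.52 in microglia, -0.16 in BMDM and -0.3 in hepatocytes, and the difference of microglia from BMDM was -1.36 ± 0.062 (SE; edgeR adjusted p = 6.6e-17). Cyp51 differed by -2.96 in microglia, -1.96 in BMDM and -0.89 in hepatocytes, and microglia were more negative than BMDM by -1.01 ± 0.181 (SE; edgeR adjusted p = 0.0019). Against hepatocytes the values were -1.22 ± 0.062 for Plin2 and -2.07 ± 0.179 for Cyp51 (SE; edgeR adjusted p = 1.8e-15 and 1.2e-07). Both genes thus differed more between the compounds in microglia than in either other cell type.

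Abca1 gave a contrast to these. The compounds differed by -0.46 in microglia and -0.47 in BMDM in that fit (a difference of 0.01 between the cell types, edgeR adjusted p = 1), but by -1.72 in hepatocytes (microglia minus hepatocytes 1.26 ± 0.11, SE; edgeR adjusted p = 1e-08). Apoe went the other way, at -1 in microglia, -0.7 in BMDM and -0.14 in hepatocytes. Its difference of microglia from BMDM was -0.3 ± 0.072 (SE; edgeR adjusted p = 0.01), which reached 0.05 without BMDM saringosterol replicate 2.

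Over the lists, cholesterol synthesis had medians of -2.14 in microglia, -1.43 in BMDM and -0.51 in hepatocytes. Of its 20 members 12 were more negative in microglia than in BMDM and 18 more negative than in hepatocytes, with none more positive. Mitosis genes had medians of 1.59 in microglia, 0.76 in BMDM and -0.18 in hepatocytes, with 9 of 20 more positive than in BMDM and 15 than in hepatocytes. In hepatocytes 13 of the 20 mitosis genes averaged under 1 CPM over the saringosterol and GW libraries (median 0.489 CPM, against 8.48 CPM in microglia), so their hepatocyte differences rest on low counts. Inflammatory genes had medians of 1.22, 0.42 and 0.09 in the same order, with 5 members more positive than in BMDM and 7 than in hepatocytes, where 11 of 22 averaged under 1 CPM. Genes of the NF-kB list had 8 members more positive in microglia than in BMDM and 8 than in hepatocytes, with medians of 0.28, -0.08 and 0.01. Endoplasmic reticulum chaperones had 10 of 16 members more negative in microglia than in BMDM, with medians of -0.33 in microglia and -0.02 in BMDM. Class II genes had medians of -0.18 in microglia and -0.8 in BMDM, with 5 of 7 members more positive in microglia.

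One BMDM library touched these results. BMDM saringosterol replicate 3 decided several values. With it, no interferon-stimulated gene of 23 differed between microglia and BMDM; without it 13 were more positive in microglia, where 2.53% of all genes were more positive and 2.06% more negative. The BMDM median of that list was 0.62 with the library and -0.3 without it. Without it, mitosis had 13 members more positive in microglia, class II 7, inflammatory genes 9, and cholesterol synthesis 9 more negative. Of single genes, Ccl2 differed between microglia and BMDM by 0.33 with all libraries (edgeR adjusted p = 0.78) and by 1.04 without that library (4.5e-04).

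**Figure D5:**
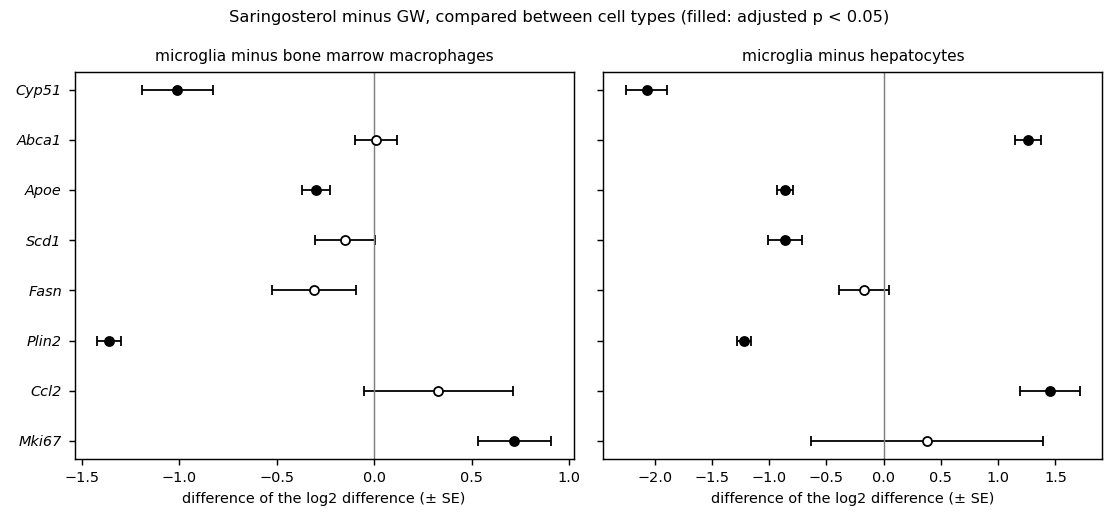
Difference of the saringosterol minus GW log2 difference between cell types (horizontal axes), microglia minus BMDM on the left and microglia minus hepatocytes on the right, for 8 genes (rows); points are estimates from the 27-library fit, bars are SE, and filled points have an edgeR adjusted p under 0.05. Plin2 and Cyp51 lie left of 0 in both panels, at -1.36 and -1.01 against BMDM, and Abca1 lies at 0.01 on the left and 1.26 on the right.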

How the data were processed

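Libraries were made with oligo-dT priming (SMARTer Ultra Low kit, per the labels' protocols). Reads were processed with bcl2fastq, STAR 2.5.1a and featureCounts 1.4.6-p5 of Subread on GRCm38, per the submitters' processing notes; not given in the sources used here are the strand setting, the annotation release and the counting of reads shared by similar or overlapping genes. The authors deposited whole-number counts per gene, not normalised, for the series and for each library. The files also hold CPM, FPKM and TPM computed by the authors, of which only the deposited series table of TPM was used, for levels per length. Of 55774 lines, 287 repeated an identifier and were dropped, leaving 55487, and 0 counts differed between the series table and the library files.

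Counts of the 9 microglia libraries were filtered with filterByExpr, scaled by TMM and tested with edgeR 4.0.16 (R 4.3.3, robust quasi-likelihood F test, 1 term per treatment, Benjamini-Hochberg adjustment over all genes tested, threshold 0.05). Differences between cell types are interaction terms in a fit of all 27 libraries. Standard errors are of log2 differences. Promoter windows come from RefSeq. Alternatives were DESeq2 1.42.0, limma 3.58.1 (voom), other scaling factors, no filter, other library sets, the replicate number as a block and leaving out each library. In each direction, named genes were the 12 called genes with the largest differences and the 6 most abundant called genes that differed at least 2-fold. The 12 were taken among genes with a mean of at least 5 CPM and no overlap between saringosterol and GW libraries. Also named were the 4 called members with the largest differences in each list, and all cholesterol synthesis genes, LXR targets and 8 key genes. Others were chosen after their values were seen. Some of these genes are counted in their lists but not reported here by name. The members and lists were chosen with earlier results of these data known. The test was checked on simulated counts. Deviations of same-numbered microglia libraries from their group means correlated at -0.15 to 0.07. With 3 libraries per group this cannot show whether same-numbered libraries shared a culture, and no pairing was used. The limits given for a count of 0 cover counting error only.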

Additional observations from a re-analysis of the deposited data

Results flagged for a closer look

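The saringosterol minus GW difference was compared between cell types for 8 genes in the fit of all 27 libraries. For 7 of them it was called different in microglia from at least 1 other cell type. These 8 genes were chosen with earlier results of these data known. Of all 18979 genes tested, 4.12% were called between microglia and BMDM and 6.72% between microglia and hepatocytes. Against BMDM, the difference in microglia was more negative for Plin2 by -1.36 (edgeR adjusted p = 6.6e-17), for Cyp51 by -1.01 (0.0019) and for Apoe by -0.3 (0.01), and more positive for Mki67 by 0.72 (0.023). Mki67 differed by 1.33 in microglia and 0.62 in BMDM, and its call was lost in several fits without 1 library (edgeR adjusted p of 0.054 to 0.067).

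Against hepatocytes, the difference in microglia was more negative for Cyp51 by -2.07 (edgeR adjusted p = 1.2e-07), for Plin2 by -1.22 (1.8e-15), for Apoe by -0.86 (2.1e-10) and for the desaturase Scd1 by -0.86 (0.00067). It was more positive for Abca1 by 1.26 (1e-08) and for the chemokine Ccl2 by 1.45 (0.0014). Ccl2 differed by 1.63 in microglia and 0.18 in hepatocytes, and Scd1 by -2.88 in microglia and -2.02 in hepatocytes. Microglia and hepatocytes were kept in different media, so medium and cell type cannot be told apart here.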

How the results depend on the processing

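Between saringosterol and GW 4092 genes were called. Other settings called 2984 (all 27 libraries in 1 fit) to 4069 (DESeq2, or 6 libraries only), and leaving out 1 library 3402 to 4173. The replicate block called 3728, although it is not known whether the numbers pair the libraries. Of the 4092 genes, 70% were also called in the 27-library fit and 79.9 to 99.1% in the others. Over all lists and settings 68 list counts moved by over 1.5 times, and those that moved when 1 library was left out are given here or beside the lists. No gene named by the stated rules reversed between saringosterol and GW, and 44 of their results over these settings lost the call. Genes chosen after their values were seen are not part of that count. Members called lower in the inflammatory list were 1, but 0 in the 27-library fit, without microglia GW replicate 2 and without microglia saringosterol replicate 2. Members called higher in the interferon-stimulated list were 19, but 1 in the 27-library fit, and members lower were 0, but 1 without microglia GW replicate 1. Calls between microglia and BMDM were 781, but 1186 with DESeq2 (the cause was not tested), and 896 without BMDM saringosterol replicate 3.

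For Abca1, microglia minus BMDM lay at 0.01 and reversed to -0.01 with DESeq2, 0 with no filter, and ranged from -0.06 to 0.05 without single libraries (0 without microglia GW replicate 1, -0.02 without microglia saringosterol replicate 2, -0.06 without BMDM GW replicate 3, -0.02 without BMDM saringosterol replicate 3). Microglia minus hepatocytes for Mki67 reversed to -0.51 without hepatocyte GW replicate 3 and -0.2 without hepatocyte saringosterol replicate 2, with 1.24 as its highest value without a library, at hepatocyte levels of 0.089 CPM with saringosterol and 0.0431 CPM with GW. Calls were fewer at low levels, where a count of 0 allows up to 0.084 CPM: 5.85% of the 4017 genes at 0.126 to 1.3 CPM were called, against 45.8% of the 4016 genes at 42.7 CPM and above, and the part of depth in this was not tested.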

Other observations

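Most of the genes tested between saringosterol and GW were protein-coding (12492 of 16065), and so were most of those called. Of all genes tested, 12.5% were higher and 12.9% lower. The share called rose with level, and the levels of these kinds of gene were not compared. Of 12492 protein-coding genes tested 1903 were higher and 2005 lower with saringosterol, of 247 lincRNA genes 12 were higher and 6 lower, and of 245 antisense genes 14 were higher and 7 lower. Without a stated strand setting, reads of an antisense gene and its partner cannot be told apart. Of 2349 processed pseudogenes 54 were higher and 31 lower, and reads shared with their parent genes were not examined.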
